A study of Homo sapiens with 4 samples.

Results

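The SOX, T-box, GATA and ZIC families hold transcription factors that decide cell fate in the embryo, and 41 of their genes were examined here for DNA methylation differences between SKOV3 cells with mesenchymal (M) and epithelial (E) phenotype. The members were 17 SOX, 15 T-box, 5 GATA and 4 ZIC genes out of 20163 protein-coding genes, and the regions counted for them were the tiles overlapping the gene span extended by 5 kb on each side. Of the 72455 distinct regions of 1000 bp listed as differentially methylated in at least 1 comparison, 196 belonged to 38 of the 41 members. SOX4, SOX10 and TBX18 had no listed tile. SKOV3 is an established cell line from a human ovarian carcinoma, and 4 of its clones were analysed by reduced representation bisulfite sequencing (RRBS), with 1 library per clone. The M clones were shC-S with a control shRNA, and LY75-R-S, derived from knockdown cells by re-expression of an shRNA-resistant cDNA of the antigen receptor LY75. The E clones were sh-LY75-S with an shRNA against LY75, and LY75-KO-S with LY75 disrupted by CRISPR. The authors deposited 3 comparisons. The knockdown comparison (shC-S vs. sh-LY75-S) set the shRNA clone against its control, the knockout comparison (LY75-R-S vs. LY75-KO-S) set the CRISPR clone against the re-expressing clone, and the mix set both E clones against both M clones and so holds the same 4 libraries.

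Each value is the authors' difference in percent methylation, E minus M, in percentage points, so a positive tile was hypermethylated in E cells and a negative one hypomethylated. The tables list the tiles that passed a difference of 25 points and a q-value of 0.01, without the methylation level, the read number or the error of either library. The depth behind a difference is therefore unknown, no value has a replicate error, and a clone and its LY75 status cannot be told apart. The order of subtraction in the knockout comparison was taken from the fit of the mix to both single comparisons. The deposited names point the other way. The knockdown comparison is named with its M clone first, and the knockout comparison with its E clone first. Under one naming rule for both, the knockout values would be M minus E. Read that way round, every sign of the knockout comparison would turn. The fit takes the mix to set both E clones against both M clones, as the study states. With the knockout signs turned, the mix values could not be read as E minus M either. Shares are given with 95% Wilson intervals, which cover counting error only and are too narrow where neighbouring tiles move together. LY75 itself, on the minus strand of chromosome 2, was hypermethylated in sh-LY75-S at the tile of its transcription start site (TSS), by 87.7 points in the single comparison and 42.9 points in the mix, whereas the knockout comparison listed no tile there. These values do not check the labels, which name an shRNA and CRISPR and no change of promoter methylation.

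SOX factors bind DNA through an HMG box, T-box factors through the T domain, and GATA and ZIC factors through zinc fingers. SOX2 and its close relatives maintain neural and stem cell progenitors, the TBX2 subfamily patterns the limbs and the heart, GATA4 to GATA6 drive heart and endoderm development and GATA2 and GATA3 blood cell development, while ZIC genes act in the neural tube and the neural crest. Many genes of this kind lie in long CpG islands that carry Polycomb marks in embryonic stem cells, and such islands often gain DNA methylation in cancer cells.

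The following windows of 250 bases show the kind of sequence behind some of the largest differences near a TSS in the knockdown comparison on the chromosomes shown. Each was cut from a listed tile on GRCh37 (hg19) as the stretch with most CpGs outside untranslated regions, and is written 5' to 3' on the strand of the gene with each CpG in capitals. The tile with the largest ZIC1 difference near a TSS had no such stretch, and the ZIC4 window comes from the tile next to it.
SOX1 (chr13:112721089-112721338, plus strand, just upstream of the TSS, tile at -92.3 points): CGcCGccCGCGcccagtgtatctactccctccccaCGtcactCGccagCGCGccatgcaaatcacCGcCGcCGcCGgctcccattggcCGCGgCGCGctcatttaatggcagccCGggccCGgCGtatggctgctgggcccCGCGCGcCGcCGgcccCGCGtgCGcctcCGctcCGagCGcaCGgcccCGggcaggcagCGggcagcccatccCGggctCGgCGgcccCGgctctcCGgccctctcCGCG
SOX8 (chr16:1033657-1033906, plus strand, from a tile overlapping an exon downstream of the TSS, tile at 100 points): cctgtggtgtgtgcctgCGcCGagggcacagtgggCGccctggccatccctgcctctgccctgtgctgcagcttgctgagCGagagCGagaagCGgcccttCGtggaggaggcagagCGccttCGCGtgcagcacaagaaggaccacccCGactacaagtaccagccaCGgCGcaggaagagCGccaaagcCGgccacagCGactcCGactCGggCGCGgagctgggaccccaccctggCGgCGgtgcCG
TBX2 (chr17:59478223-59478472, plus strand, first kilobases of the gene in an intron, tile at -95.9 points): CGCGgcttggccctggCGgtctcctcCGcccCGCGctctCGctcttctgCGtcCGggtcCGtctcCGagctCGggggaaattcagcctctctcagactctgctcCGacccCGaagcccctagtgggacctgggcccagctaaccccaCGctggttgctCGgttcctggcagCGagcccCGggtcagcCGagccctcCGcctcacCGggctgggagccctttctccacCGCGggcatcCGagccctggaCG
GATA6 (chr18:19747083-19747332, plus strand, upstream, tile at -93.0 points): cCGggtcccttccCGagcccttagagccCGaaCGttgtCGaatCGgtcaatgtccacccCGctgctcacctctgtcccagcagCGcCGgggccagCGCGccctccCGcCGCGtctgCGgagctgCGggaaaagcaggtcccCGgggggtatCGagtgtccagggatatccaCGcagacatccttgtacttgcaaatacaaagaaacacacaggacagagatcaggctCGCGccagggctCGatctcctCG
GATA2 (chr3:128211152-128211401, minus strand, from the tile just downstream of the TSS, tile at 79.9 points): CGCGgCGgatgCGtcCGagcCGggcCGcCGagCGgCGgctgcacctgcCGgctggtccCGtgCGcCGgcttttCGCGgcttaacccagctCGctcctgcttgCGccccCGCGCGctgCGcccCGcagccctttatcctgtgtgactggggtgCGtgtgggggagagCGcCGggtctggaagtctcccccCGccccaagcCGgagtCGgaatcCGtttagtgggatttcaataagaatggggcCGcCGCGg
ZIC4 (chr3:147126633-147126882, minus strand, upstream of ZIC4 and of the TSS of ZIC1, tile at -71.4 points): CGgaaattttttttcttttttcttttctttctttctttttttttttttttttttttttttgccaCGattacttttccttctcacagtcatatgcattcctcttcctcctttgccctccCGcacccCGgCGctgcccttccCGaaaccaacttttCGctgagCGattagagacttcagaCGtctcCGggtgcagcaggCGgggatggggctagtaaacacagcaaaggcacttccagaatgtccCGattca
The SOX1 window held 40 CpGs and the GATA2 window 33, the SOX8, TBX2 and GATA6 windows 23, 25 and 23, and the ZIC4 window 12.

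In the knockdown comparison the members were mostly hypomethylated in E cells, against the direction of the genome as a whole. Of their 162 listed tiles, 62 (38.3%, interval 31.1 to 45.9%) were hypermethylated and 100 hypomethylated, while 64.7% of all listed tiles of this comparison were hypermethylated. In the knockout comparison 30 of 48 member tiles (62.5%, interval 48.4 to 74.8%) were hypermethylated, beside 54.7% of all tiles, which lies within the interval. Read in the opposite order of subtraction, the count would be 18 of 48 (37.5%) beside 45.3% of all tiles, close to the knockdown comparison, so the contrast between the comparisons rests on that order. In the mix 31 of 69 member tiles (44.9%, interval 33.8 to 56.6%) were hypermethylated, beside 65.0% of all tiles. The differences were about as large as elsewhere, with a median absolute difference of 49.5, 38.1 and 37.6 points for the members and 50.0, 41.9 and 36.9 points for all tiles in the same order of comparisons. A listed tile was found for 37 of 41 members in the knockdown comparison, 26 in the knockout comparison and 31 in the mix, beside 60.3%, 46.8% and 38.2% of all protein-coding genes, although windows differ in length and CpG content between genes.

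**Figure D1:**
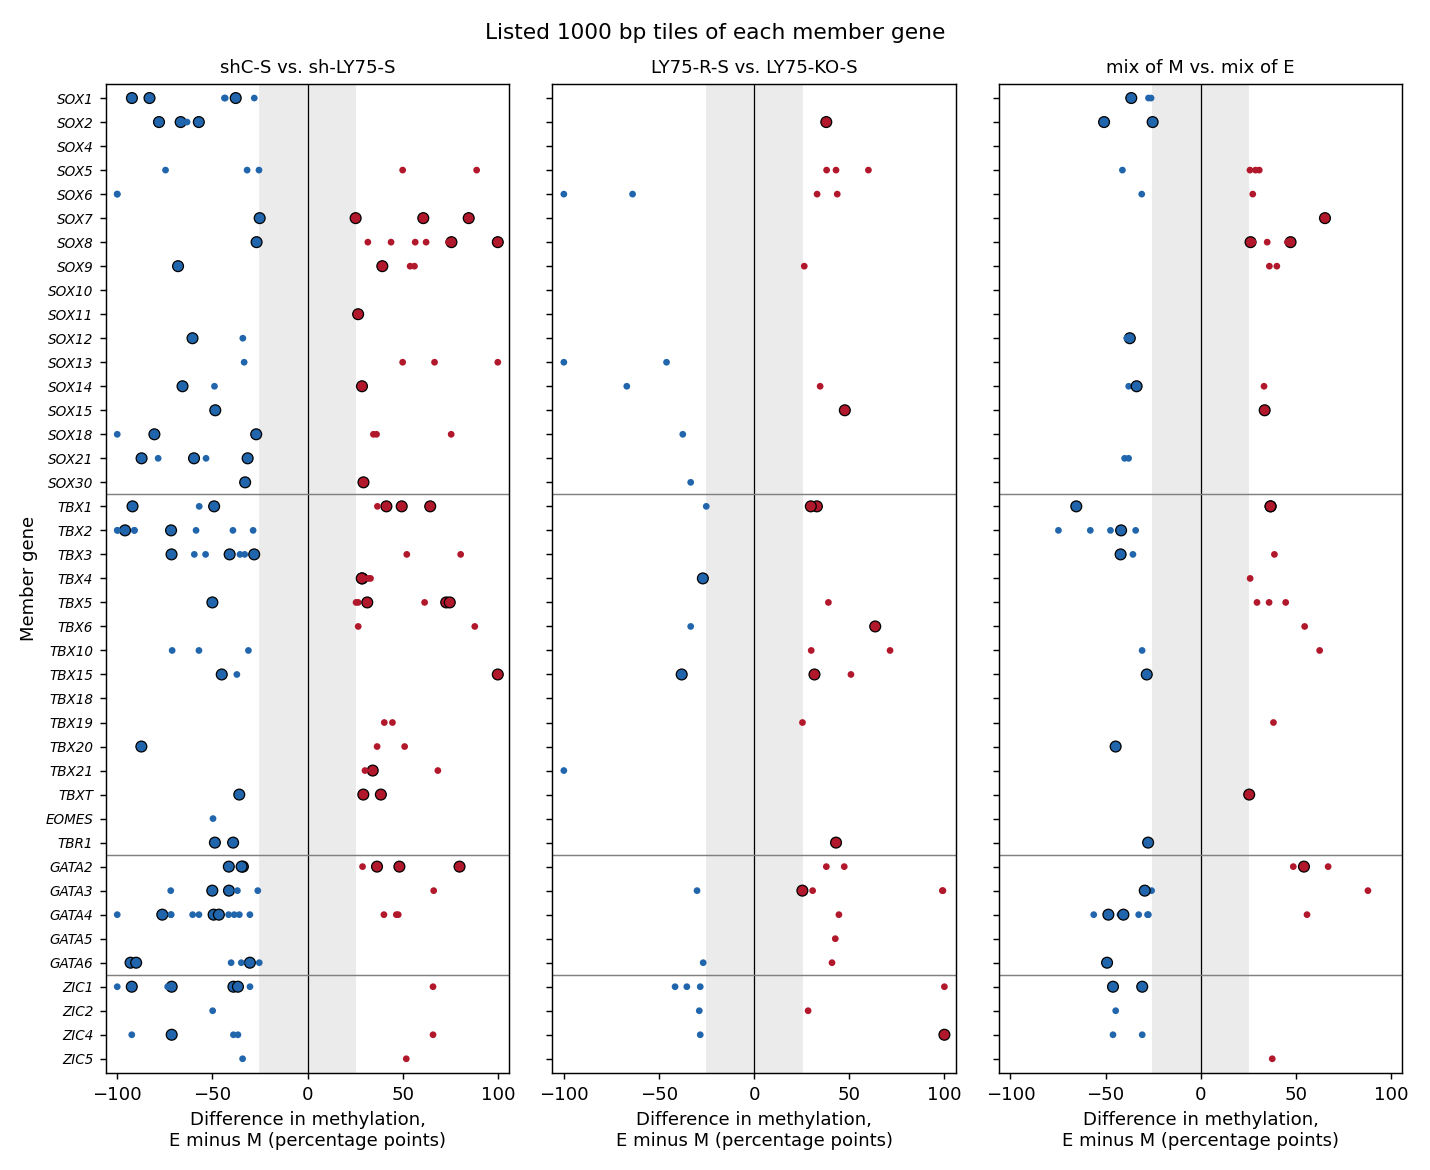
Each point is a listed tile of 1000 bp of the gene on the vertical axis, and the horizontal axis gives the difference in methylation, E minus M, in percentage points for each of the 3 comparisons. Large outlined points lie within 2 kb of a TSS of the gene, red is hypermethylated and blue hypomethylated in E cells, and the grey band holds the differences under 25 points that were not listed. In the knockdown comparison 100 of 162 tiles lie on the hypomethylated side.

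**Figure D2:**
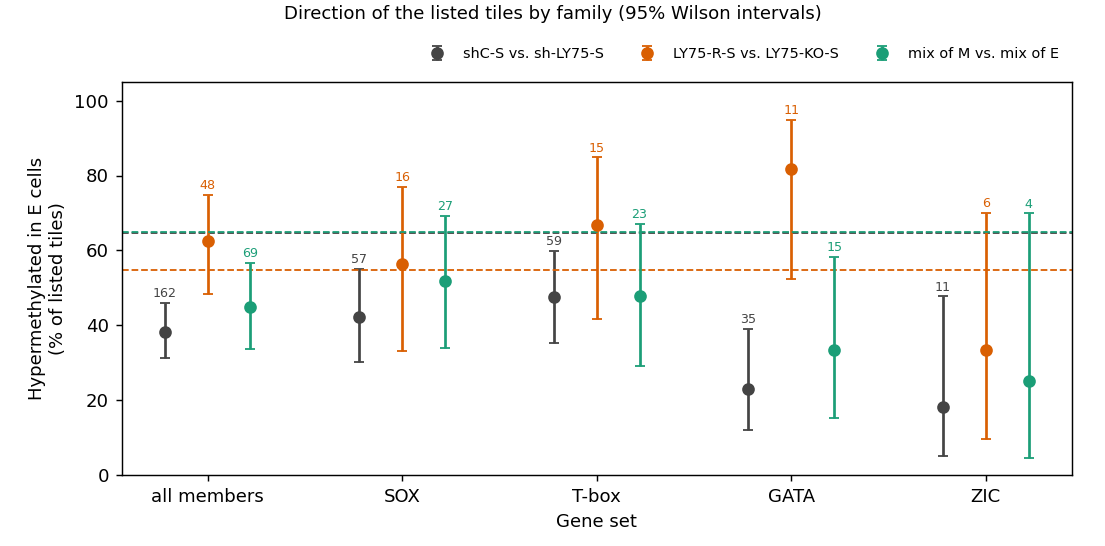
The share of listed tiles hypermethylated in E cells is plotted in percent for all members and for each family, with 95% Wilson intervals and the number of tiles above each bar, and dashed lines give the share among all listed tiles of the same comparison. GATA and ZIC have the lowest shares in the knockdown comparison, 22.9 and 18.2%, and GATA the highest in the knockout comparison, 81.8%, or the lowest, 18.2%, if that comparison is read in the opposite order.

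The members lie in CpG-dense sequence, and the direction was therefore also read among tiles of like CpG number. The listed member tiles of the knockdown comparison held a median of 51.5 CpGs, against 19 for all listed tiles. With 50 or more CpGs per tile, 29 of 86 member tiles (33.7%, interval 24.6 to 44.2%) were hypermethylated, beside 58.2% of all such tiles. Within 2 kb of a TSS the count was 24 of 70 (34.3%, interval 24.2 to 46.0%), beside 55.6% of all listed tiles near a protein-coding TSS. With under 20 CpGs it was 13 of 28 (46.4%, interval 29.5 to 64.2%), beside 61.9% of all such tiles, which lies within the interval. In the knockout comparison 9 of 11 member tiles near a TSS (81.8%, interval 52.3 to 94.9%) were hypermethylated, beside 53.3% of all such tiles, or 2 of 11 (18.2%) beside 46.7% in the opposite order.

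The members were also listed more often in the knockdown comparison and the mix, and about as often as other tiles in the knockout comparison. By a model of MspI fragments, 599 of the 3188 tiles in the members' windows could be reached by reads, and 26.7% of them were listed in the knockdown comparison, beside 12.4% of all reachable tiles. The model is approximate, as 6 member tiles that it calls out of reach were listed in at least 1 comparison. In the knockout comparison 7.18% of the reachable member tiles were listed, beside 6.63% of all, and in the mix 11.4% beside 5.14%. The difference from the genome was largest in dense tiles, where 86 of 200 reachable member tiles (43.0%, interval 36.3 to 49.9%) were listed in the knockdown comparison, beside 17.0% of all reachable tiles with 50 or more CpGs. In the same 200 tiles the knockout comparison listed 11 (5.50%, interval 3.10 to 9.58%), beside 3.25% of all such tiles. With under 20 CpGs the knockdown share was 15.4% (interval 10.8 to 21.5%), beside 11.3% of all such tiles, which lies within the interval. With 20 to 49 CpGs it was 21.0% beside 12.9%. The knockout share with under 20 CpGs was 11.4% (interval 7.52 to 17.0%), beside 7.27% of all such tiles, which lies outside the interval. With 20 to 49 CpGs the knockout share was 5.36% beside 6.45%. Of the 162 listed tiles, 53 also lay within 2 kb of the TSS of a long non-coding RNA and 6 within 2 kb of that of a protein-coding gene that is no member. A tile that is not listed may have been unchanged, uncovered or below the thresholds, and these cases cannot be told apart.

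**Figure D3:**
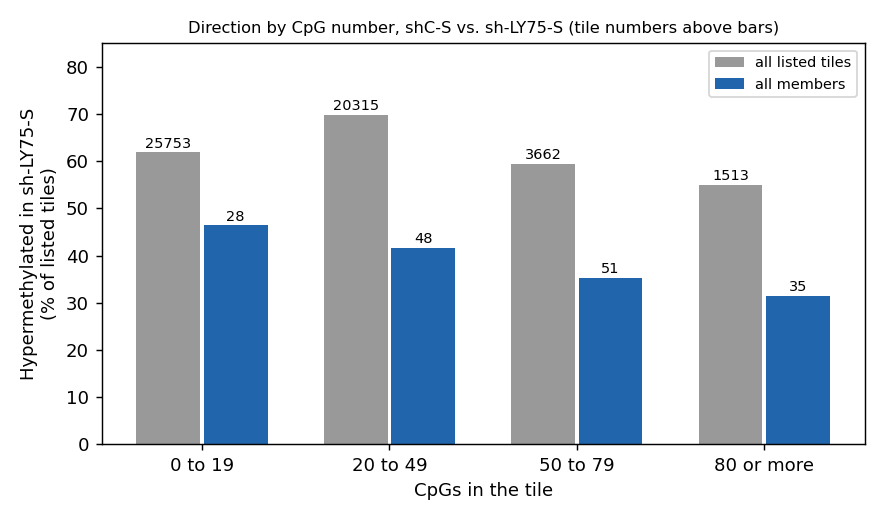
Bars give the percent of listed tiles of the knockdown comparison that were hypermethylated in sh-LY75-S, by the number of CpGs in the tile, for all listed tiles (grey) and for the members (blue), with the number of tiles above each bar. The member bars stand at 46.4% of 28 tiles with under 20 CpGs and 31.4% of 35 tiles with 80 or more.

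The SOX genes divided by subgroup in the knockdown comparison. As a family, 24 of 57 SOX tiles (42.1%, interval 30.2 to 55.0%) were hypermethylated in E cells, beside 64.7% of all tiles. SOXB genes, the progenitor factors SOX1 and SOX2 and the repressors SOX14 and SOX21, were hypomethylated at 17 of 18 tiles. SOXE genes, which act in neural crest, cartilage and gonad, were hypermethylated at 10 of 12 tiles, from SOX8 and SOX9 alone, as SOX10 had none. This division into textbook subgroups was made after the values had been seen, and neighbouring tiles of one gene fill most of it.

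Among SOXB genes, SOX1 was hypomethylated in sh-LY75-S at all of its 6 listed tiles, from -28.0 to -92.3 points. The tile of its TSS had the largest difference, and with the tiles at -37.7 and -83.0 points it formed an unbroken run of 3 tiles, chr13:112721001-112724000. The run covered the start of the gene and part of its body, and 3 SOX1 tiles at -26.1 to -36.5 points were also listed in the mix, none in the knockout comparison. SOX2, the pluripotency and neural progenitor factor, was hypomethylated in sh-LY75-S at 4 of 4 tiles, between -57.1 and -78.1 points. Its largest difference lay in the exon just downstream of the TSS, where the mix gave -50.8 points. The tile upstream of its TSS had -66.7 points in sh-LY75-S but 37.9 points in LY75-KO-S. SOX21, a repressor that counters SOX1 and SOX2 in neural progenitors, was hypomethylated in sh-LY75-S at 5 of 5 tiles, from -31.5 to -87.2 points, with the largest difference at the TSS. SOX14, the other SOXB repressor, gave -65.7 points in its exon, -48.9 points downstream and 28.6 points upstream.

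Of the SOXE genes, SOX8 had 8 listed tiles in the knockdown comparison, and 7 were hypermethylated in E cells. Of the 7, 1 lay upstream at 75.6 points, 3 formed an unbroken run over exons at chr16:1033001-1036000, with 100, 43.9 and 31.7 points, and 3 lay downstream at 56.6 to 74.1 points. The tile just upstream of the TSS was the exception, at -26.8 points. In the mix 5 of these tiles were listed, at 26.2 to 47.2 points, and the knockout comparison listed none. SOX9, a regulator of cartilage and testis development, was hypermethylated at a pair of adjacent upstream tiles, by 56.2 and 53.9 points. Its next tiles were opposite in sign, with -68.0 points directly upstream of the TSS and 39.3 points in the tile of the TSS.

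SOXF genes act in blood and lymph vessels and SOX7 is also known to restrain Wnt signalling. SOX7 was hypermethylated in sh-LY75-S at 3 of 4 tiles, by up to 84.7 points in the exon just downstream of its TSS, where the mix gave 65.3 points, the largest SOX difference near a TSS in the mix. SOX18 showed both directions, with -27.0 points at its TSS, -80.5 points at the tile beside it, 75.5 points downstream and -100 points at its farthest upstream tile. The SOXD genes SOX5, SOX6 and SOX13, long genes with roles in cartilage and neural development, had 11 tiles in the knockdown comparison, of which 5 were hypermethylated. None of these lay within 2 kb of a TSS, none held more than 29 CpGs, and they included SOX5 at 88.9 points, SOX6 at -100 points on 2 tiles and SOX13 at 100 points. The remaining SOX genes had few tiles. SOX12 was hypomethylated at 2 tiles, by -60.4 and -34.0 points, SOX11 hypermethylated at 1 tile by 26.6 points, and SOX15 hypomethylated at 1 tile by -48.5 points. SOX30, a testis factor, had -32.8 and 29.4 points at adjacent tiles near an alternative TSS, where the TSS of another protein-coding gene also lay. The study's Wnt/β-catenin gene list names SOX1, SOX6, SOX7, SOX8, SOX11, SOX13, SOX14 and SOX15. As that list was chosen on these libraries, their presence here is no independent evidence.

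In the knockout comparison the SOX genes had 16 listed tiles, 9 of them hypermethylated in E cells (56.3%, interval 33.2 to 76.9%). The share over all tiles was 54.7%. Only SOX2 and SOX15 had a tile near a TSS, at 37.9 and 47.7 points. The largest differences were distal, with SOX6 and SOX13 each at -100 points in 1 tile of 12 and 21 CpGs. By the model of MspI fragments, reads could reach 0 and 6 of these CpGs. In the mix, 14 of 27 SOX tiles were hypermethylated, beside 65.0% of all tiles. One mix tile, downstream of SOX14 at 33.3 points, was listed in neither single comparison.

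The T-box genes held opposite directions on neighbouring paralogues. In the knockdown comparison, 28 of 59 tiles (47.5%, interval 35.3 to 60.0%) were hypermethylated in E cells, beside 64.7% of all tiles. The T-box share was the highest of the families, although the intervals of the 4 families overlapped. TBX2 and TBX4 are adjacent on chromosome 17 with 42.9 kb between them, and TBX3 and TBX5 lie 261.8 kb apart on chromosome 12, pairs that go back to the duplication of one ancestral gene pair. TBX2 was hypomethylated at 10 of 10 tiles and TBX4 hypermethylated at 4 of 4. TBX3 was hypomethylated at 7 of 9 tiles and TBX5 hypermethylated at 6 of 7. TBX2 and TBX3 are repressors that hold back senescence, TBX4 acts in the hindlimb and TBX5 in the forelimb and the heart. The pairs were set side by side after their values had been seen.

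TBX2 was hypomethylated in sh-LY75-S from upstream of its start to downstream of its end. Its differences in the knockdown comparison were -28.6, -39.2 and -71.7 points in a run of 3 tiles toward the TSS, then -95.9 points in an intron and between -90.9 and -100 points at the next 4 tiles through the exons. Downstream of the gene the values were -96.5 and -58.6 points. The differences were thus smaller at either end of the window than inside it. These 10 tiles held 40 to 102 CpGs each, but how many of those CpGs were read is unknown. By the model of MspI fragments, reads could reach 14 and 13 CpGs in the tiles at -100 and -99.8 points. In the mix 5 of the tiles were listed, from -34.2 to -74.8 points, and the knockout comparison listed none. TBX4 by contrast differed by 28.5 to 33.1 points, just above the threshold of the tables, with 28.8 points at its TSS, and had -26.9 points at 1 tile in the knockout comparison.

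TBX3 had -71.5 points just downstream of its TSS and -40.9 points at it in sh-LY75-S, with -42.1 points in the mix at the former, and its hypermethylated tiles, at 80.5 and 52.2 points, lay at the far end of the gene and downstream of it. TBX5 had 74.8 and 31.4 points upstream of and at its TSS, 72.9 points 4 kb into the gene, and -50.0 points at 1 tile between them. Its tile values were thus mixed around the start and positive over the rest.

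**Figure D4:**
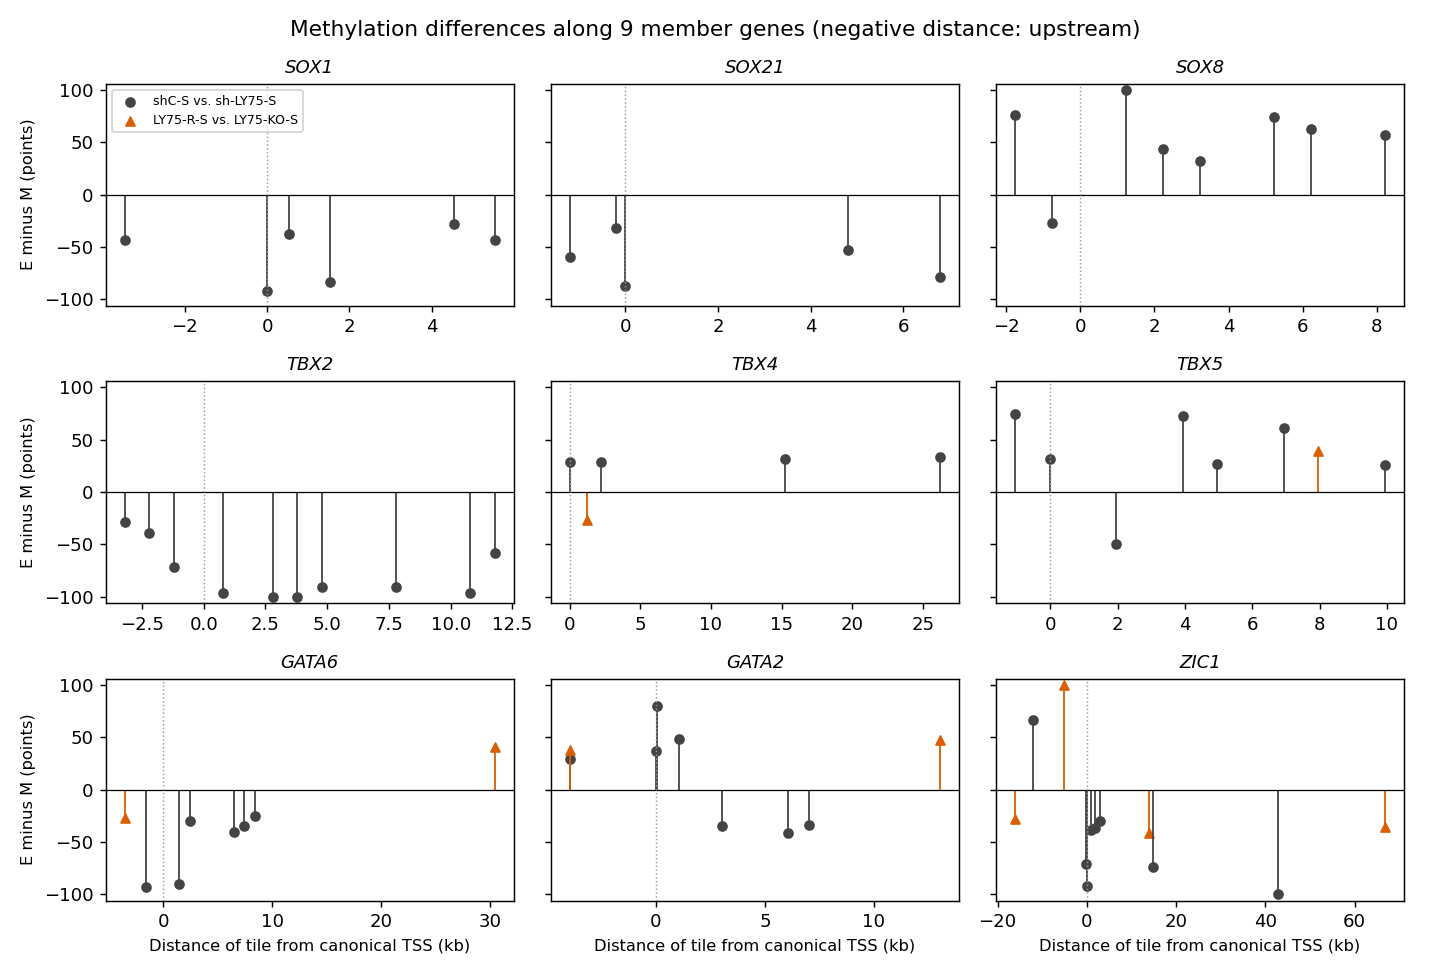
The differences in methylation, E minus M, in percentage points, are plotted for 9 member genes against the distance in kb of the nearest edge of the tile from the canonical TSS, with upstream tiles at negative distance and a tile holding the TSS at 0, for the knockdown comparison (grey circles) and the knockout comparison (orange triangles). SOX1, SOX21, TBX2 and GATA6 have only negative circles, SOX8 and TBX5 mostly positive ones, TBX4 only positive ones, and GATA2 and ZIC1 change sign along the gene.

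The other T-box genes changed in part or at few tiles. TBX1, a pharyngeal arch factor, had 7 tiles in the knockdown comparison, and its 3 adjacent upstream tiles at 41.5 to 64.5 points were followed by -49.1 and -92.0 points next to the canonical TSS. The last of these also had the largest T-box difference near a TSS in the mix, -65.4 points. TBX20, a heart factor, had -87.3 points at its TSS and -44.7 points in the mix there, and 36.6 and 51.0 points further upstream. TBX15 had 100 points at an upstream tile of 12 CpGs, 2 of them reachable by the model, and -45.1 points directly upstream of its canonical TSS. TBX6 had 87.9 and 26.6 points upstream, where a second protein-coding gene starts, and 63.6 points in LY75-KO-S at a tile near a TSS of its own. TBX10 was hypomethylated at 3 tiles downstream of the gene, at -31.1 to -71.1 points, of which 2 lie near the TSS of another gene.

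Of the T-box genes of gastrulation and of the immune system, TBXT (brachyury) had 38.6 and 29.3 points at and just downstream of its TSS in sh-LY75-S and -35.9 points upstream. TBX19, the pituitary factor, was hypermethylated at 2 tiles, and TBX21 (T-bet), the master factor of type 1 helper T cells, at 3 tiles between 30.2 and 68.5 points. Its relatives TBR1 and EOMES were hypomethylated, TBR1 by -48.7 and -39.1 points in its exons and EOMES by -49.7 points downstream. In the knockout comparison 10 of 15 T-box tiles (66.7%, interval 41.7 to 84.8%) were hypermethylated, beside 54.7% of all tiles, which lies within the interval. The listed tiles near a TSS included 43.1 points at TBR1 and -38.1 points at the TSS of TBX15. In the mix the count was 11 of 23, beside 65.0% of all tiles.

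The GATA genes were mostly hypomethylated in the knockdown comparison. Of their 35 tiles, 8 (22.9%, interval 12.1 to 39.0%) were hypermethylated in E cells, beside 64.7% of all tiles. GATA4 had 16 of these 35 tiles, and 13 of them were hypomethylated, reaching -100 points. Its 3 tiles near the canonical TSS had -49.4, -46.6 and -76.3 points, and the next exon had -71.8 and -71.7 points in an unbroken run of 3 tiles. The 3 hypermethylated GATA4 tiles, at 40.2 to 47.7 points, lay over 5 kb upstream of this TSS or over 35 kb downstream. Without GATA4, 5 of 19 GATA tiles were hypermethylated. GATA6 was hypomethylated at 6 of 6 tiles, with -93.0 points upstream of its TSS and -90.1 points in the exon downstream of it, and -25.4 to -40.2 points elsewhere. At that exon tile the mix gave -49.2 points, while the knockout comparison listed other GATA6 tiles, at -26.8 points upstream and 40.9 points toward the end of the gene.

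GATA2 and GATA3 did not share this direction throughout. GATA2 was hypermethylated at the 3 adjacent tiles around its canonical TSS, by 48.3, 79.9 and 36.5 points, and hypomethylated further into the gene, by -34.0 to -41.4 points. It thus changed sign along the gene. GATA3, a luminal factor of the breast and of T cells, was hypomethylated in sh-LY75-S at 5 of 6 tiles, including -50.0 points in the exon just downstream of the TSS, -41.3 points upstream and -71.9 points further upstream. GATA5 was listed in the knockout comparison alone, at 42.7 points in a tile upstream of the gene.

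In the knockout comparison the GATA genes were the family with the largest share of hypermethylated tiles, 9 of 11 (81.8%, interval 52.3 to 94.9%). The share over all listed tiles, 54.7%, lies within the interval. GATA3 had 98.9 and 99.2 points far inside the gene, in tiles of 17 and 15 CpGs. By the model of MspI fragments, reads could reach only 4 and 2 of these CpGs. GATA2 had 47.4 and 38.0 points and GATA4 44.6 points. Read in the opposite order the count would be 2 of 11 (18.2%), the lowest of the families. The comparisons shared 1 tile of GATA2 and 1 of GATA3 only, so their shares mostly describe different tiles. In the mix, 5 of 15 GATA tiles were hypermethylated, beside 65.0% of all tiles. Near a TSS the largest differences in the mix were 54.2 points at GATA2, -49.2 points at GATA6 and -48.5 points at GATA4.

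The ZIC genes had 11 listed tiles in the knockdown comparison. Of these, 2 (18.2%, interval 5.14 to 47.7%) were hypermethylated in E cells, beside 64.7% of all tiles. ZIC1 and ZIC4 are head-to-head neighbours on chromosome 3 whose spans overlap in this annotation, so all 7 listed ZIC4 tiles were also counted for ZIC1, and once for the family. ZIC1 was hypomethylated across 5 adjacent tiles, chr3:147126001-147131000, the longest unbroken run among the members. From the ZIC4 side into ZIC1 the values were -71.4, -92.4, -38.9, -36.6 and -30.2 points, so within the run the difference was largest at the TSS of ZIC1. Deeper in its introns ZIC1 had -73.5 points and, at a tile of 14 CpGs with 3 reachable by the model, -100 points. The mix listed 2 of these tiles, at -46.1 and -30.7 points, and the knockout comparison none. That comparison listed 4 tiles for the pair, with 100 points at a CpG-poor tile near the TSS of ZIC4 and -28.3 to -41.5 points elsewhere. ZIC2 and ZIC5, the matching pair on chromosome 13, had 3 tiles in sh-LY75-S. ZIC5 had -34.1 and 51.9 points, and ZIC2 had -49.9 points upstream.

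The single comparisons shared 15 member tiles in 14 genes, 9.26% of the member tiles of the knockdown comparison and 31.3% of those of the knockout comparison, beside 16.3% and 29.5% over all listed tiles. Of these, 6 had the same direction (40%, interval 19.8 to 64.3%) and 9 the opposite one, beside 52.6% with the same direction among all 8345 tiles shared by both comparisons. The interval holds the share of all tiles.

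All 6 tiles with one direction were also listed in the mix, which holds the same libraries and so adds no independent evidence. GATA3 had 66.3 points in the knockdown comparison, 99.2 points in the knockout comparison and 87.9 points in the mix, in an intron far from the start. SOX9 had 53.9, 26.4 and 36.1 points upstream, and TBX1 had 49.5, 33.0 and 36.7 points in an exon. In these genes the mix fell between the single comparisons. TBX19 had 40.4, 25.4 and 38.2 points in an intron, and ZIC2, the only hypomethylated tile of this kind, had -49.9, -28.8 and -44.7 points upstream. GATA2 had 28.9, 38.0 and 67.0 points upstream, so its value in the mix lay outside the range of the single comparisons, which was the case for 913 of the 4250 tiles listed in all tables.

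**Figure D5:**
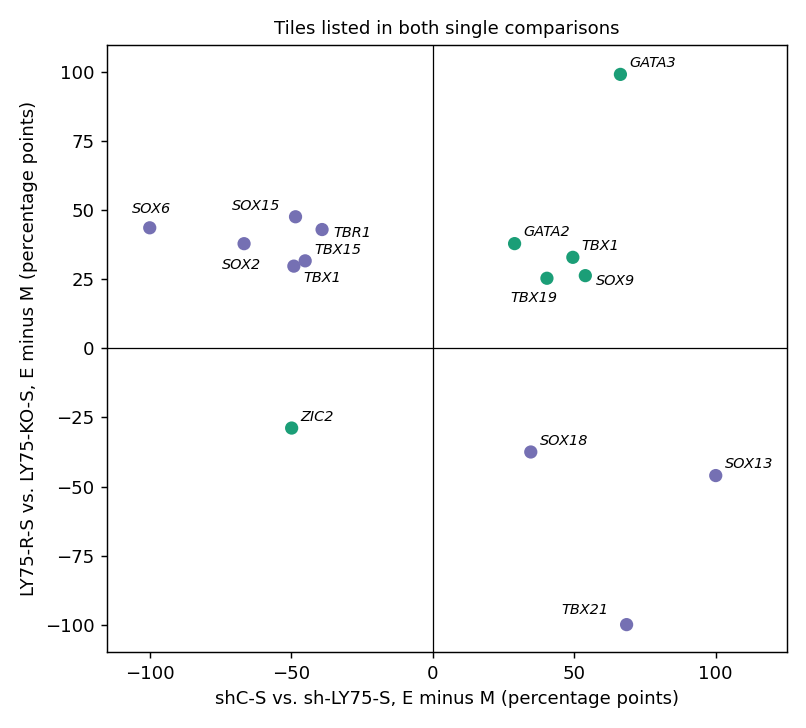
Each point is a member tile listed in both single comparisons, labelled by its gene, with the difference of the knockdown comparison on the horizontal axis and that of the knockout comparison on the vertical axis, both in percentage points, E minus M. The 6 tiles with the same direction are green and the 9 with opposite directions purple, and 6 of the purple ones lie at the upper left, hypomethylated in sh-LY75-S and hypermethylated in LY75-KO-S.

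Of the 9 opposite tiles, 5 lay within 2 kb of a TSS of their gene. SOX2, SOX6, SOX15, TBX1, TBX15 and TBR1 were hypomethylated in sh-LY75-S and hypermethylated in LY75-KO-S, for example TBR1 at -39.1 and 43.1 points. SOX13, SOX18 and TBX21 had the reverse order, for example TBX21 at 68.5 and -100 points in an exon. SOX15 was the only opposite tile listed in the mix as well, at 33.6 points, the sign of the knockout comparison. Each of these differences compares 2 libraries, and a difference between clones that is unrelated to LY75 cannot be told apart from one that is related to it. LY75-R-S was also derived from sh-LY75-S cells, and whether that origin bears on the opposite signs was not tested.

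A list of 18 known partner genes of these families is given for comparison. In the knockdown comparison, 16 of 18 partners had a listed tile, beside 60.3% of all protein-coding genes, and 29 of their 84 tiles (34.5%) were hypermethylated in E cells, beside 64.7% of all tiles. Of the 37 tiles of 10 partners in the knockout comparison, 25 (67.6%) were hypermethylated, beside 54.7%, and in the mix 11 of 31 (35.5%), beside 65.0%. PAX3 and PAX6, neural factors that act beside SOX proteins, were hypomethylated in sh-LY75-S at 8 of 8 and 9 of 10 tiles, and POU3F2, a partner of SOX2 in neural progenitors, at 4 of 4, from -53.1 to -83.4 points. TAL1, a partner of GATA factors in blood cells, was hypermethylated at 4 of 4 tiles, from 33.4 to 68.0 points. POU5F1, the partner of SOX2 in stem cells, had 100 points at both of its tiles. GLI2, a relative of the ZIC genes that carries Hedgehog signals, had the most tiles of the list, 10 of 15 of them hypermethylated, a share near that of all tiles. GLI1 had no listed tile, and CTNNB1 had 1, in the knockout comparison, at -26.3 points.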

How the data were processed

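RRBS libraries of 4 SKOV3 clones, 1 each, were compared by the authors. Per the labels, DNA was digested with MspI and read over 50 bp. The submitters' processing notes name FastQC, Trim Galore 0.4.1, Bismark 0.16.1, methylKit (version not given in the sources used here) and hg19, and the protocol also names Trimmomatic. The authors' deposited tables give, for tiles of 1000 bp, a difference in percent methylation, a p-value and a q-value. Their names carry a q-value of 0.01, whereas the methods state a less strict adjusted p. The tables list only tiles past the thresholds and hold no read counts, so depth, coverage and precision are unknown, and no test between conditions was made. Copies of one molecule made by PCR could not be removed and would make the p-values too small.

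Tiles were assigned to members with GENCODE release 44 on GRCh37, over the gene span extended by 5 kb, and called near a TSS within 2 kb of any TSS of the member. Tiles shared by members were counted once per set. The sign of the knockdown comparison (sh-LY75-S against shC-S) follows the directions stated for 10 selected genes, which 10 of 10 shared. The sign of the knockout comparison (LY75-KO-S against LY75-R-S) follows from a least-squares fit of the mix on both over 4250 tiles (coefficients 0.534 and 0.435). This fit takes the mix as E clones against M clones. The sign does not follow the deposited name, which puts the knockout clone first. Reachable tiles hold a CpG within 50 bp of the end of an MspI fragment of 40 to 220 bp. Tile windows and intervals were tested on simulated data. Single tiles were named for members listed in all tables, for the 3 members of each family and table with the largest difference near a TSS, for those with most tiles, and for tiles of opposite direction, besides LY75. Other tile values fill out the account of each member. The members and lists were chosen with earlier results of these data known. Alternatives are given in the closing section. Scripts ran on Python 3.11.15 with pandas 2.3.3, numpy 2.4.6, matplotlib 3.10.9 and scipy 1.17.1. One sequence window is not reported here. Expression was not analysed here.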

Additional observations from a re-analysis of the deposited data

Results flagged for a closer look

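At 9 member tiles the single comparisons had opposite directions. These comparisons share no library, but LY75-R-S of one was derived from the sh-LY75-S cells of the other. The difference between them was not tested, as each rests on 1 pair of libraries. In points, E minus M, in the knockdown comparison and then in the knockout comparison, they were -66.7 and 37.9 at SOX2, -100 and 43.7 at SOX6, and 100 and -46.0 at SOX13. SOX15 had -48.5 and 47.7 points, and SOX18 had 34.6 and -37.5. Among T-box genes the values were -49.1 and 29.8 points at TBX1, -45.1 and 31.7 at TBX15, 68.5 and -100 at TBX21, and -39.1 and 43.1 at TBR1. The tiles of SOX2, SOX15, TBX1, TBX15 and TBR1 lie within 2 kb of a TSS of the gene, and the others do not.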

How the results depend on the processing

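Of 67 alternative values, 57 stayed within the interval of the reported share or within 1.5 times the reported count. With tiles within 2 kb of a TSS alone, the share hypermethylated became 81.8% (9 of 11 tiles) in the knockout comparison and 32.0% (8 of 25) in the mix, that of ZIC tiles 0 of 4, the share with the same direction in both single comparisons 16.7% (1 of 6), and the members with a tile 9 in the knockout comparison and 19 in the mix. With differences of 50 points or more, the share in the mix became 58.3% (7 of 12), and the members with a tile 11 in the knockout comparison and 9 in the mix. In the knockdown comparison the share of member tiles hypermethylated ranged from 34.3 to 43.4% over all alternatives. Its upper end came without GATA4 and TBX2, and it was 41.2% (14 of 34) when each gene counted once, both chosen after seeing the data. Without SOX8, the SOX share was 34.7%, without TBX2 the T-box share 57.1%, without GATA4 the GATA share 26.3% and without ZIC1 the ZIC share 2 of 8 tiles, also chosen after seeing the data. The tiles that ZIC1 shares with ZIC4 stayed in this last count, among them the tile of the ZIC1 TSS. ZIC2 and ZIC5 alone had 1 of 3 tiles hypermethylated. Reading the knockout comparison in the opposite order gave 9 of 15 shared tiles with one direction (60.0%), and 18 of its 48 member tiles hypermethylated (37.5%), the latter chosen after seeing the data. No paired analysis was possible because each clone is 1 library and the result comes from no test. Leaving out a replicate was not possible for the same reason, and coverage could not be varied because the tables hold none.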
